A study of Mus musculus and Ictidomys tridecemlineatus with 36 samples.

Results

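Broad H3K4me3 domains were peaks of the H3K4me3 list that were 3000 bp or wider. They were chosen by width alone, separately in P5 13LGS (the 13-lined ground squirrel, whose retina is cone-dominant) and in P2 mouse retina, whose photoreceptors are mostly rods. The limit kept 881 of 18020 H3K4me3 peaks in 13LGS and 940 of 14069 in mouse, 1821 domains in all. In CUT&RUN, a nuclease tethered to an antibody releases the DNA around a histone mark or a bound protein, and the released fragments are sequenced. The series held 36 libraries from snap-frozen retinas, whose labels name no strain, genotype or treatment. Each 13LGS reaction took 500000 nuclei from a pool of 2 individuals at postnatal day 5, and each mouse reaction took 385000 nuclei from a pool of 3 at postnatal day 2. H3K4me3, H3K27ac and H3K4me1 had 1 library each in 13LGS and 2 each in mouse. Otx2 had 6 libraries in 13LGS and 8 in mouse, made with a pair of antibodies, Neurod1 had 4 in each species, and the IgG control had 3 and 2. The 13LGS libraries of the 3 histone marks came from 1 biological replicate, a single pool. Those of every other target came from 2 biological replicates per species, so the Otx2 and Neurod1 libraries include technical replicates. In 13LGS, 1 of the Otx2 antibodies was used only on the replicate that also gave the histone marks. Each list pools the libraries of its target, so it gives 1 value per peak with no spread between replicates, and read depth is unknown. Intervals printed below are 95% Wilson intervals that cover counting error only, and differences between domains and all H3K4me3 peaks are given as counts and medians without a test. Species, age, genome assembly, peak number and library number changed together, so a difference between 13LGS and mouse cannot be told apart from any of them.

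H3K4me3 is the trimethylated form of lysine 4 on histone H3 and marks the starts of genes that are active or ready to be used. Most of its peaks are narrow, but at some genes the mark runs on into the gene body, and such wide domains are known for covering genes that set cell identity. H3K27ac marks active promoters and enhancers, and H3K4me1 is typical of enhancers and of the shoulders of promoters. Otx2 is a homeodomain protein needed to make photoreceptors and bipolar cells, and Neurod1 is a basic helix-loop-helix protein that promotes photoreceptor differentiation and survival.

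The DNA under a few mouse domains is printed as examples. The windows below are 300 bases centred on the summit of the strongest Otx2 or Neurod1 peak of a domain, on the forward strand of GRCm38. The Otx2 peaks had folds of 22.1 at *Mycn* and 14.6 at *Crx*, and the Neurod1 peaks 18.3 at *Tpd52* and 6.76 at *Mir183*. Some domains with stronger peaks than *Crx* or *Mir183* are not printed. Capitals mark TAATCC, a core that Otx2 binds, and the E-boxes CAGATG and CAGCTG that basic helix-loop-helix proteins such as Neurod1 bind, each searched on both strands, so that GGATTA and CATCTG also count. The *Tpd52* window lies in an intron of that gene at chr3:8964216-8964515, the *Mycn* window in an intron at chr12:12937969-12938268, the *Crx* window in intergenic DNA at chr7:15881270-15881569, and the *Mir183* window in intergenic DNA at chr6:30168950-30169249.
*Tpd52* domain, Neurod1 summit: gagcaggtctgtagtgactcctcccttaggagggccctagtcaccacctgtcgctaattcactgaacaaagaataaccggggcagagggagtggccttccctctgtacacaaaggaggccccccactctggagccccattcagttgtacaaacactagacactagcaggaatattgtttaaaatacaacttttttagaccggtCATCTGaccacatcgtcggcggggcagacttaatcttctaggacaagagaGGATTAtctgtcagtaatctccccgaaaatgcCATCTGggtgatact
*Mycn* domain, Otx2 summit: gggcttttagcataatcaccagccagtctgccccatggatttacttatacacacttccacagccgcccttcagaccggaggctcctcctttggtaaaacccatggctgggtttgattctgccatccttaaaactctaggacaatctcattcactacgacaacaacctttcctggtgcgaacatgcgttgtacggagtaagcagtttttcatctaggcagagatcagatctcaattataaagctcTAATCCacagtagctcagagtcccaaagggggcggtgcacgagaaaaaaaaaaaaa
*Crx* domain, Otx2 summit: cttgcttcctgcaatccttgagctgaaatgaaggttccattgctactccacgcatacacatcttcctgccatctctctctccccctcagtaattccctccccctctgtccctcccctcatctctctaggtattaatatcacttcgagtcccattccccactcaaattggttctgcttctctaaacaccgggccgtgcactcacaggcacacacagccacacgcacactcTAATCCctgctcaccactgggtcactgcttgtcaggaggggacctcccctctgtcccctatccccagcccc
*Mir183* domain, Neurod1 summit: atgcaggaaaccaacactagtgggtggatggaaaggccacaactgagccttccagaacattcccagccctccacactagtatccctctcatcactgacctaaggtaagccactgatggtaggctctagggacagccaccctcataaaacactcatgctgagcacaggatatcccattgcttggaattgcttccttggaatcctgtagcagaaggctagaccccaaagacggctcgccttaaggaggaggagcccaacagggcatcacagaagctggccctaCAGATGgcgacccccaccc
The *Tpd52* window held CAGATG at 2 positions and TAATCC at 1, all read on the reverse strand. The nearest CAGATG was 56 bp from the Neurod1 summit, and the summit of the Otx2 peak of the same domain lay at base 8964344, against 8964366 for Neurod1. In the *Mycn* and *Crx* windows TAATCC lay 97 and 82 bp from the Otx2 summit. In the *Mir183* window CAGATG lay 134 bp from the Neurod1 summit. Every printed window held a motif of its factor, which most Otx2 peaks in domains did not. The windows are therefore examples that are not typical of Otx2 peaks in domains. TAATCC lay in the summit window of 9.41% of Otx2 peaks in mouse domains, beside 7.06% of RefSeq promoters of 300 bases. For CAGATG it was 34.1% of Neurod1 peaks in domains, beside 17.2% of promoters.

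Several mouse domains, the widest of all among them, held a microRNA and no protein-coding start site. Their mature sequences, from the RefSeq annotation of GRCm38, are given with the seed (bases 2 to 8, the part that pairs with target RNAs) in capitals, and no 2 of those printed shared a seed.
miR-9-5p, from *Mir9-2*: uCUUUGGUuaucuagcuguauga
miR-9-3p, from *Mir9-2*: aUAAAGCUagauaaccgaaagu
miR-183-5p, from *Mir183*: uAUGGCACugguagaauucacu
miR-96-5p, from *Mir96*: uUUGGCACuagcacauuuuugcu
let-7i-5p, from *Mirlet7i*: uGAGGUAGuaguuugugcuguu
miR-125b-5p, from *Mir125b-1*: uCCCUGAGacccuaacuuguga
miR-9 is a regulator of neural progenitors, and miR-183 and miR-96 belong to a cluster transcribed in sensory cells, photoreceptors among them. let-7i and miR-125b belong to families that are known for regulating developmental timing.

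Width set the members, so the values of this paragraph describe them and support nothing. The median width was 3615 bp in 13LGS (quartiles 3245 and 4342 bp) and 3650 bp in mouse (3230 and 4396 bp), and the widest domains reached 24965 and 27099 bp. A limit of 2000 bp would have given 3419 domains in 13LGS and 3265 in mouse, and a limit of 4000 bp 310 and 332. In each species 11 domains were 10000 bp or wider, while 72 in 13LGS and 71 in mouse were 6000 bp or wider. The domains made up 4.89% of the 13LGS peaks and 15.4% of the bases under H3K4me3, and 6.68% of the mouse peaks and 18.6% of the bases. Their fold enrichment, which is the pooled signal at the summit over the background taken from IgG, had a median of 37.0 in 13LGS and 35.2 in mouse, against 11.8 and 12.4 for the other H3K4me3 peaks. It ran from 4.13 to 192 over the 13LGS domains and from 4.41 to 159 over the mouse domains, so that some wide domains were weak. The summit lay in the central 50% of the domain in 81.6% of 13LGS and 87.9% of mouse domains.

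At the limit itself, the 2 narrowest 13LGS domains were 3001 and 3002 bp wide with fold enrichments of 37.4 and 29.6, and the 2 widest peaks left out, both of 2999 bp, had 29.5 and 23.7. In mouse the 2 narrowest domains were 3000 bp, at the start of the non-coding RNA *Dleu2* with a fold of 57.9, and 3002 bp, at *Dusp7*, a phosphatase that acts on MAP kinases, with a fold of 17.4. The peaks just below were 2999 bp wide at *Ccni* and *2010109A12Rik* with a fold of 22.6, and 2998 bp wide at *Lsm14b* with 32.3. Among these few peaks the folds on either side of the limit overlapped in mouse and not in 13LGS. Over all peaks they overlapped in both species, as the other H3K4me3 peaks reached folds of 130 in 13LGS and 126 in mouse. All 13LGS domains lay on 19 contigs and all mouse domains on 20 chromosomes, with 28 on the mouse X chromosome, and neighbouring domains were a median of 1843266 bp apart in 13LGS and 1670568 bp in mouse. A gap of 1 kb or less separated 8 pairs of neighbours in 13LGS and 6 in mouse.

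H3K4me1 overlapped nearly every domain and lay mostly towards the ends. It was found at 852 of 881 domains in 13LGS (96.7%, interval 95.3 to 97.7%) and 928 of 940 in mouse (98.7%, 97.8 to 99.3%), beside 76.9% and 88.1% of all H3K4me3 peaks. A wider peak has more room for an overlap, so the 500 bp on each side of the H3K4me3 summit were also compared. There the order turned: H3K4me1 touched the summit window of 42.7% of 13LGS domains against 61.0% of all H3K4me3 peaks, and of 51.1% of mouse domains against 72.8%. This window is not free of width, because in a narrow peak it takes in the ends. The median H3K4me3 peak was 1123 bp wide in 13LGS and 1338 bp in mouse. Peaks of 2500 to 3000 bp had 45.0% and 54.7%, close to the domains. The summits of H3K4me1 peaks inside domains lay near the ends. Of 858 such summits in 13LGS, 65.9% were within 750 bp of an end, a zone that holds 36.4% of the domain bases, and in mouse it was 69.8% of 1081 summits for 36.2% of the bases. In density this was 0.428 summits per kb in the outer zone against 0.127 further in for 13LGS, and 0.535 against 0.132 for mouse. H3K4me1 peaks reached the 1000 bp outside both ends in 70.9% of 13LGS and 80.9% of mouse domains.

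The profile over the domain ends gives this arrangement in bins of 100 bp. In the first 100 bp inside an end, H3K4me1 covered 76.9% of 13LGS and 85.7% of mouse ends. It fell to 35.0% in both species at 1400 bp inside, and on the outside it fell to 35.9% and 34.3% at 3000 bp. Otx2 ran the other way. Its coverage was 10.3% in the first 100 bp inside 13LGS ends and 40.0% at 1000 bp, and 22.1% and 49.3% in mouse. H3K27ac rose from 24.0% to 42.7% between the end and 1400 bp inside in 13LGS, and from 15.3% to 22.2% in mouse.

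**Figure D1:**
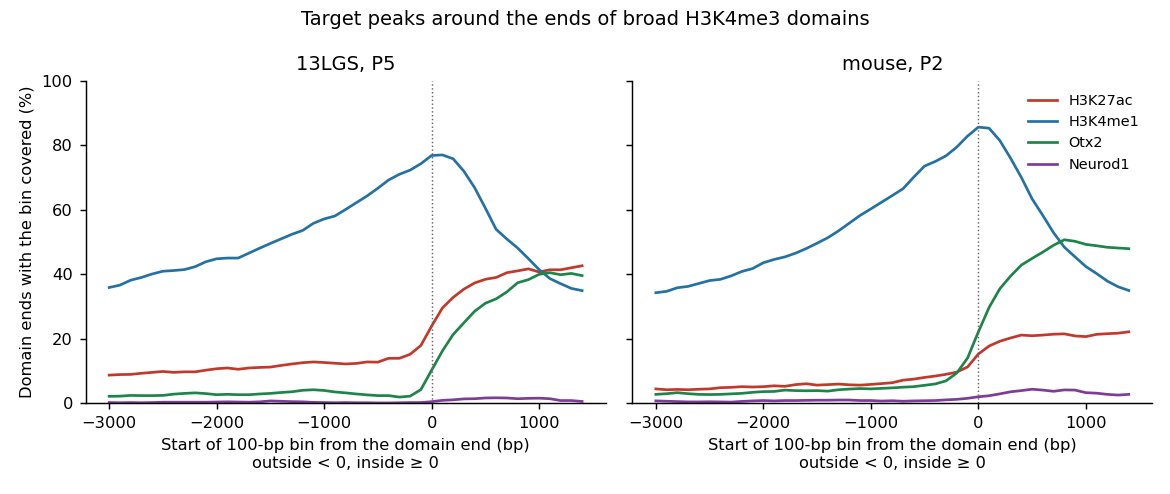
Percent of domain ends (y axis, both ends of every domain, 881 domains in 13LGS and 940 in mouse) whose 100-bp bin was at least 50 bp covered by a target peak, against the distance of the bin from the end in bp (x axis, negative outside). H3K4me1 peaks at the end itself, while Otx2 and H3K27ac are higher inside, where they reach 40.0% and 42.7% of 13LGS ends.

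H3K27ac was present at most domains. In 13LGS 720 of 881 overlapped an H3K27ac peak (81.7%, 79.0 to 84.1%), beside 40.3% of all H3K4me3 peaks, and in mouse 596 of 940 did (63.4%, 60.3 to 66.4%), beside 29.0%. Unlike H3K4me1, it kept this order at the summit, with 69.4% of 13LGS domains against 38.4% of all peaks and 43.0% of mouse domains against 25.7%. A median of 33.8% of the bases of a 13LGS domain lay under H3K27ac, with quartiles of 10.3 and 63.3%, and 12.7% of a mouse domain, with quartiles of 0 and 32.1%. Over all H3K4me3 peaks the median was 0 in both species, with upper quartiles of 39.2% in 13LGS and 15.4% in mouse. With target peaks of a −log10 q of 5 or more only, the domain medians were 24.8% in 13LGS and 0 in mouse. H3K27ac peaks that touched a region numbered 0.363 per kb in 13LGS domains and 0.368 in the other H3K4me3 peaks, and 0.260 and 0.225 in mouse. The 13LGS H3K27ac list had 93999 peaks and the mouse list 62930. The share rose with width within the domains, from 78.5% of those of 3000 to 4000 bp to 91.7% of those of 6000 bp or more in 13LGS, and from 57.2 to 87.3% in mouse. At the summit window, where width adds no room, it also rose, from 65.8 to 84.7% in 13LGS and from 39.0 to 62.0% in mouse. The 161 domains without H3K27ac in 13LGS had a median H3K4me3 fold of 24.2 against 39.3 for those with it, and in mouse the 344 without had 27.4 against 40.3.

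Otx2 peaks overlapped 839 of 881 domains in 13LGS (95.2%, 93.6 to 96.5%) and 914 of 940 in mouse (97.2%, 96.0 to 98.1%), beside 62.9% and 78.6% of all H3K4me3 peaks. At the summit window this was 80.6% against 62.0% in 13LGS and 82.2% against 76.7% in mouse. The share over all peaks is lowered by the narrowest, at 35.8% in 13LGS and 47.1% in mouse under 500 bp. Peaks of 2500 to 3000 bp, the class next to the domains, had 86.7% in 13LGS and 89.6% in mouse, more than the domains. Otx2 peaks that touched a region, counted per kb of its width, were fewer in domains than in the other H3K4me3 peaks. They numbered 0.392 against 0.567 per kb in 13LGS and 0.415 against 0.649 in mouse. This count takes an Otx2 peak whole even where it lies partly outside a narrow H3K4me3 peak. The median share of bases under Otx2 was higher in domains in 13LGS, 31.3% against 26.6% in the other peaks, and lower in mouse, 42.4% against 47.0%. The median fold enrichment of Otx2 peaks in domains was 3.26 in 13LGS and 3.69 in mouse, against 3.29 and 3.72 for those in the other H3K4me3 peaks. Several Otx2 peaks could share a domain, 2 or more in 396 of 881 domains of 13LGS and 465 of 940 of mouse, and as many as 11 and 18. Over all H3K4me3 peaks, most of them narrower and with less room, 2 or more lay in 1185 of 18020 and 1354 of 14069.

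Neurod1 was seen at few domains. It overlapped 90 of 881 in 13LGS (10.2%, 8.39 to 12.4%) and 189 of 940 in mouse (20.1%, 17.7 to 22.8%), beside 4.35% and 8.20% of all H3K4me3 peaks. With Neurod1 peaks of a −log10 q of 5 or more only, it was 6.02% of 13LGS and 14.5% of mouse domains. The summit window did not keep this order in 13LGS, where it was 3.63% of domains (2.58 to 5.08%) and 3.75% of all peaks, and in mouse it was 8.40% (6.80 to 10.4%) and 6.81%. Counted per kb in the same way as for Otx2, Neurod1 peaks numbered 0.0270 in domains and 0.0356 in the other H3K4me3 peaks in 13LGS, and 0.0581 and 0.0586 in mouse. Domains took 2.10% of all Neurod1 peaks in 13LGS and 4.76% in mouse, and 82.8% and 74.4% of Neurod1 peaks lay outside H3K4me3 altogether.

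**Figure D2:**
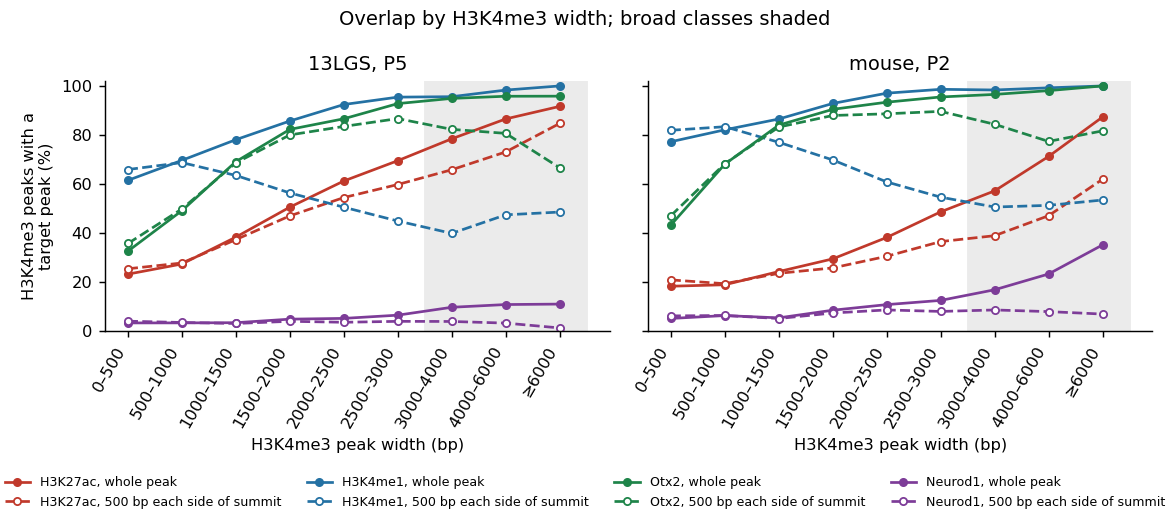
Percent of H3K4me3 peaks that overlap a peak of each target (y axis) in 9 classes of H3K4me3 width in bp (x axis), for the whole peak (solid lines) and for 500 bp on each side of the summit (dashed lines); the broad classes are shaded. H3K27ac is higher in the broad classes than in every narrower class on both lines, H3K4me1 at the summit is lower in the broad classes than in those under 2000 bp, and Neurod1 is higher in the broad classes on the solid line, while its dashed line stays between 1.39% and 8.73%.

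Taking the targets jointly, the commonest state in both species was H3K27ac, H3K4me1 and Otx2 without Neurod1, in 596 domains of 13LGS (67.7%) and 443 of mouse (47.1%), beside 27.3% and 21.3% of all H3K4me3 peaks. Next came H3K4me1 and Otx2 alone, in 132 (14.98%) and 275 (29.3%), beside 20.5% and 42.0% of all H3K4me3 peaks. All 4 targets met in 81 domains of 13LGS (9.19%, against 2.77% of all H3K4me3 peaks) and 139 of mouse (14.8%, against 4.44%). Domains without H3K27ac held Neurod1 in 2.48% of 13LGS and 14.0% of mouse cases, and domains with it in 11.9% and 23.7%. Only 3 domains in 13LGS and none in mouse had no peak of any of the 4 targets, where 10.7% and 3.92% of all H3K4me3 peaks had none.

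Genes could be named in mouse, where start sites came from GENCODE release M21 on GRCm38. A protein-coding start site lay in 901 of 940 domains (95.9%, 94.4 to 97.0%), beside 78.1% of all H3K4me3 peaks. A single protein-coding gene started in 770 domains and 2 or more in 131, while 22 held the start of a non-coding gene only and 17 held no annotated start. In all, 1031 of 21924 protein-coding genes (4.70%) had a start site in a domain, and 11674 (53.2%) in any H3K4me3 peak. The domains ran mostly into the gene. In 653 domains over the 5' end of a single protein-coding gene, they reached a median of 2776 bp into the gene and 919 bp upstream, and 94.3% were longer on the gene's side. In the other peaks the medians were 1028 and 377 bp, and 92.9% were longer on that side. The whole gene lay inside the domain at 26 of the 653. The windows of 1000 bp at the domain summits had a median GC content of 61.9% and 71 CpG per kb, and those of the other peaks of 1000 bp or more had 61.3% and 70 per kb, so base composition at the summit was close.

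The widest mouse domain, chr13:83714948-83742046, covered 27099 bp with an H3K4me3 fold of 101 and held *Mir9-2* with the non-coding genes *C130071C03Rik*, *Gm26803* and *Gm33366*. It had 5 H3K27ac peaks over 91.6% of its bases and 18 Otx2 peaks, and no Neurod1 peak. *Pax6*, the master regulator of eye formation, came next with 23272 bp and a fold of 52.4, 10 H3K27ac and 12 Otx2 peaks. *Six3*, an eye field factor that represses Wnt signalling in the forebrain, had 21563 bp, a fold of 129, and the strongest H3K27ac peak of the widest 10, at 12.8-fold. The fourth domain, chr3:17783247-17797224, covered 13978 bp at *Mir124a-2*, named from GENCODE, which makes a microRNA abundant in neurons, and had H3K27ac over 98.5% of its bases and 2 Neurod1 peaks. *Tbx2*, a T-box factor of the dorsal retina, had 12846 bp and a fold of 87.7. *Meis2*, a homeodomain cofactor in eye development, had 12456 bp and a fold of 38.4, 5 Otx2 peaks and no H3K27ac peak. A domain of 12242 bp at *Six6*, which keeps retinal progenitors dividing, and *4930447C04Rik* had a fold of 127.

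Of the other domains among the 10 widest, *Tnrc18*, a chromatin protein gene, had 11868 bp and a fold of 94.1. The domain at *Mab21l2*, which is required for eye development, and at *Lrba*, whose gene spans it, had 11466 bp and a fold of 99.3. *Rorb*, a nuclear receptor that acts upstream of *Nrl* in rod precursors, had 10657 bp and a fold of 110. None of these 3 had a Neurod1 peak. All 10 had H3K4me1 and Otx2 peaks, 9 of 10 had H3K27ac, and only the *Mir124a-2* domain had Neurod1. *Rax*, the retinal homeobox gene, stood outside these 10 at 9622 bp and had the highest H3K4me3 fold of all mouse domains, 159.

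**Figure D3:**
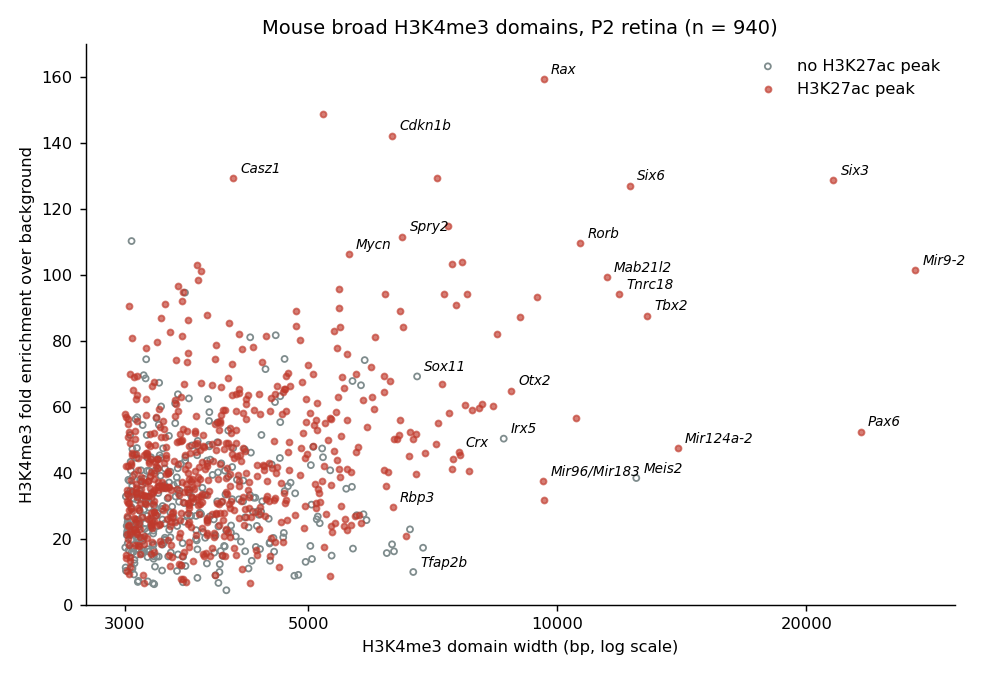
H3K4me3 width in bp (x axis, log scale) against H3K4me3 fold enrichment (y axis) for the 940 mouse domains, filled where an H3K27ac peak overlaps and open where none does, with genes at some domains named. The domains at *Mir9-2*, *Pax6* and *Six3* stand apart in width at 21563 bp or more, and *Rax* has the highest fold, 159.

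The domain at the sensory microRNAs, chr6:30169056-30178674, was 9619 bp wide with an H3K4me3 fold of 37.6. It held the hairpins of *Mir183* and *Mir96*, had H3K27ac over only 8.89% of its bases, and carried 4 Otx2 peaks of up to 10.0-fold and 2 Neurod1 peaks of up to 6.76-fold, the stronger of which is centred in the window printed above. *Mirlet7i* lay in a domain of 3956 bp (fold 47.2) with 3 H3K27ac peaks, and *Mir125b-1* in one of 3902 bp (fold 9.94) with none. Of 1005 mouse hairpins in the RefSeq table used here, 96 lay in some H3K4me3 peak and 17 in 15 domains, most of them in domains that also held a protein-coding start site, such as those of *Chd4*, *Actg1* and *Smarcc2*. The 17 include *Gm51268*, which overlaps *Mir9-2* on the opposite strand. They leave out *Mir124a-2*, which was named from GENCODE. *Malat1*, an abundant nuclear RNA, had a domain of 7366 bp with a fold of 115.

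Genes were then counted by lists of known function, beside the 4.70% of all protein-coding genes in a domain and the 53.2% with any H3K4me3 peak. The lists were drawn up with earlier results of these data known, so the counts describe them. Progenitor and eye field genes had the most members in domains, 23 of 27, with a median width of 7167 bp. The 23 encode transcriptional regulators but for *Zfp36l1* and *Zfp36l2*, whose products are RNA-binding proteins. Besides those above they included *Lhx2* (8442 bp, fold 82.2), a LIM factor of the optic vesicle, *Meis1* (9460 bp, 93.4), *Sox2* (7167 bp, 55.1), which keeps progenitors neural, *Nr2f1* (10529 bp, 56.6) and *Nr2e1* (7621 bp, 45.4), an orphan receptor that holds progenitors in cycle. H3K27ac was missing at 5 of the 23, *Meis2*, *Sox9*, *Sox11*, *Nr2f2* and *Tbx3*, of which *Sox11* had 6766 bp and a fold of 69.2. *Nfia*, *Nfix* and *Id3* had narrower peaks, of 2821, 2002 and 2697 bp.

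Photoreceptor TFs had 9 of 17 members in domains, all with H3K27ac and Otx2 peaks, beside 61.4% and 97.4% of all protein-coding genes in domains. Their median width was 6165 bp, against 3600 bp over all those genes, and H3K27ac was commoner at wide domains. It lay at 71.3% of mouse domains of 4000 to 6000 bp and 87.3% of those of 6000 bp or more. The *Otx2* gene itself had 8796 bp at a fold of 64.9, with 4 Otx2 peaks of up to 4.15-fold, and *Crx*, its photoreceptor relative, had 7596 bp at 46.3 with an Otx2 peak of 14.6-fold. *Neurod1* had 6165 bp at 40.9 with Otx2 peaks of up to 9.79-fold and Neurod1 peaks of up to 11.1-fold. The rod determinants *Nrl* and *Nr2e3* had 5376 and 3490 bp at folds of 24.9 and 12.3. *Prdm1*, which keeps photoreceptor precursors from becoming bipolar cells, had 7726 bp, *Mef2d* 4452 bp and *Casz1*, a zinc finger factor, 4052 bp with a fold of 129. Neurod1 peaks lay in the domains of *Crx*, *Neurod1*, *Nrl* and *Mef2d*, 4 of the 9, beside 19.0% of all protein-coding genes in domains. *Nr2e3* was the only one of the 9 with no H3K4me1 peak. The list members outside domains included cone and rod factors alike. The cone-associated receptor genes *Thrb* and *Rxrg* had 2587 and 1485 bp, and *Mef2c* had 964 bp. *Samd7*, which the paper names as an activator of rod genes, had 2081 bp. *Onecut1* had 2654 bp and *Sall3* 1581 bp, and *Esrrb* and *Sall1* had no peak. *Onecut2*, which the paper describes as cone-promoting, had a domain and is counted below with inner retinal neurons.

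Proneural and Notch pathway genes had 13 of 22 members in domains, with a median width of 4166 bp. *Insm1*, a zinc finger factor of neurogenesis, had 5562 bp at a fold of 56.1 and *Neurod4* 5328 bp at 23.8. The Notch ligand *Dll1* had 5137 bp, the receptor *Notch1* 3518 bp, and the effectors *Hes1*, *Hes5*, *Hes6*, *Hey1* and *Hey2* between 3254 and 5719 bp. Neurod1 peaks lay in 7 of these 13 domains (53.8%), *Insm1*, *Hes6*, *Dll1*, *Dll4*, *Notch1*, *Lfng* and *Btg2*, with folds of 2.71 at *Lfng*, which encodes a modifier of Notch, to 6.46 at *Hes6*. Over all protein-coding genes in domains this was 196 of 1031 (19.0%). Outside the domains, *Atoh7*, needed for ganglion cells, had 1403 bp and *Neurog2* 2603 bp.

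TFs of inner retinal neurons had 10 of 35 members in domains, and these looked different. H3K27ac lay in 1 of the 10, *Prox1*, a factor of horizontal cells, where all protein-coding genes in domains had it in 633 of 1031 (61.4%). Their median H3K4me3 fold was 13.3, against 35.1 over those 1031. *Irx5*, which acts in bipolar cells, was the widest at 8611 bp with a fold of 50.4. *Tfap2b* and *Tfap2a*, factors of amacrine and horizontal cells, had 6694 and 4860 bp at folds of 9.94 and 9.07, and *Barhl2*, which acts in amacrine and ganglion cells, had 5659 bp at 17.0. *Lhx9* (3467 bp, 10.3) and *Nr4a2* (3196 bp, 7.09), like *Tfap2a*, had no Otx2 peak. *Onecut2* (4960 bp, 13.0), *Lhx4* (3079 bp, 13.6) and *Bhlhe22* (3352 bp, 35.3) did, and so did *Prox1* (4520 bp, 41.4). All 10 had H3K4me1 peaks. In bulk retina a low enrichment over few cells and over few copies of the mark per cell cannot be told apart.

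**Figure D4:**
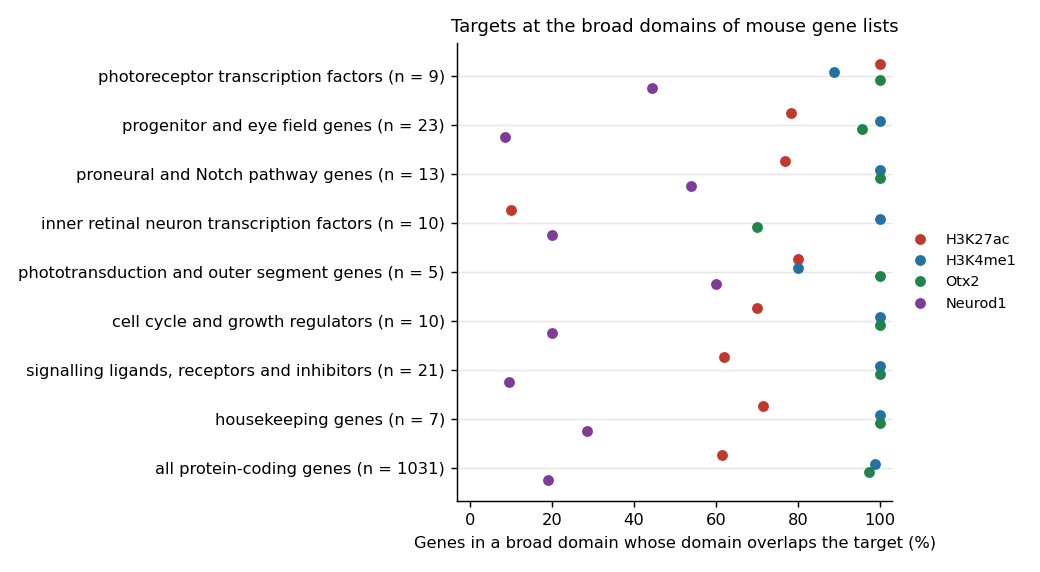
Percent of the genes of each list with a start site in a mouse domain (n beside the name) whose domain overlaps H3K27ac, H3K4me1, Otx2 or Neurod1 (x axis), with all protein-coding genes in domains in the last row. TFs of inner retinal neurons sit at 10% for H3K27ac, against 61.4% over all protein-coding genes in domains.

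Phototransduction and outer segment genes had 5 of 33 members in domains and 9 with any H3K4me3 peak. These were *Rbp3*, the retinoid carrier of the interphotoreceptor matrix (6321 bp, fold 29.6), *Rom1* (4655 bp, 19.1) and *Prph2* (3378 bp, 32.6), which shape the outer segment discs, *Rp1* (4192 bp, 16.2), a protein of the photoreceptor axoneme, and *Pdc*, which binds transducin (3100 bp, 32.7). All 5 had Otx2 peaks, of 4.28-fold at *Pdc* to 13.8-fold at *Rbp3*, and 3 had Neurod1 peaks, beside 97.4% and 19.0% of all protein-coding genes in domains.

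Cell cycle and growth regulators had 10 of 24 members in domains. *Mycn*, which supports progenitor growth, had 5590 bp at a fold of 106 and carried the highest Neurod1 fold of any mouse domain, 20.9, and the second highest Otx2 fold, 22.1. *Cdkn1b*, an inhibitor that takes cells out of the cycle, had 6311 bp at 142, *Ccnd1*, the main retinal cyclin D, 7464 bp at 41.2, and *Mki67* 4038 bp at 72.9. Signalling genes had 21 of 38 members in domains, with *Fgf9* (8048 bp), the Wnt receptor *Fzd5* (7820 bp), the FGF inhibitor *Spry2* (6492 bp, fold 112) and the hedgehog receptor *Ptch1* (6353 bp) the widest. H3K27ac was present at 13 of the 21 (61.9%) and Otx2 at all 21, beside 61.4% and 97.4% of all protein-coding genes in domains.

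All 30 housekeeping genes had H3K4me3 and 7 had a domain (23.3%), beside 8.83% of all protein-coding genes with an H3K4me3 peak. At a width limit of 2000 bp 20 of the 30 would have had one, and at 4000 bp 1. The 7 had widths of 3007 bp at *Pgk1* to 4168 bp at *Tbp*. Developmental TFs of other tissues had 0 of 32 in domains and 2 with a narrow peak, *Gata6* at 264 bp and *Gsc* at 285 bp. Markers of cell types were counted as well. All 10 retina markers, which are transcription factor genes of the lists above, had a domain. Of 10 markers of the retinal pigment epithelium 0 had a domain and 3 had a narrow peak (*Mitf*, *Rlbp1* and *Pmel*, whose peak is also that of the neighbouring *Cdk2*). Of 10 microglia and blood markers 0 had any peak. Of 10 endothelial and mural markers, *Kdr*, a VEGF receptor, had a domain of 5235 bp at a fold of 55.2, and the other 9 had no peak. Only 9 of 33 phototransduction and outer segment genes had a peak in this retina, so a missing peak cannot show that a cell type was absent.

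**Figure D5:**
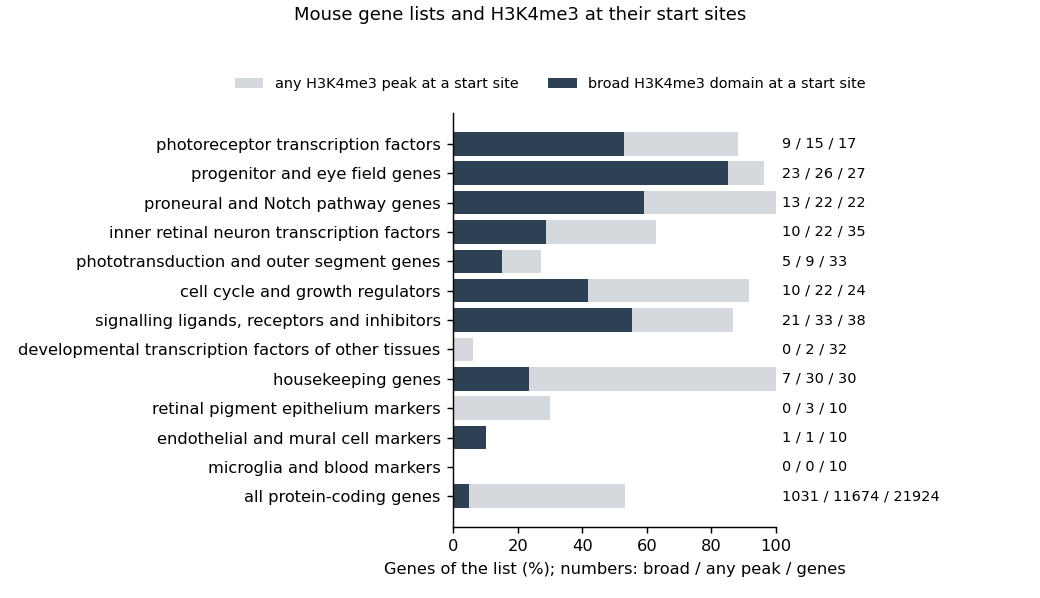
Percent of genes in each mouse list (x axis) with a start site in a broad domain (dark bars) and in any H3K4me3 peak (light bars, drawn behind from 0), with the numbers of genes at the right. Progenitor and eye field genes stand highest at 23 of 27 in domains, and the lists of other tissues, pigment epithelium, and microglia and blood hold 0.

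Of the domains with the strongest target peaks, only that of *Six3* was among the 10 widest. For H3K27ac they were a domain of 4198 bp at the non-coding gene *BC064078* (16.1-fold), a domain of 3082 bp at chr10:20204762-20207843 with no annotated start (13.5-fold) and *Six3* (12.8-fold), and the first 2 lay under H3K27ac over 100% of their bases. For Otx2 they were a domain of 3382 bp at a start site of *Tpd52*, a membrane traffic gene (32.9-fold), *Mycn* (22.1-fold) and *Dhx32*, an RNA helicase gene (17.1-fold). For Neurod1 they were *Mycn* (20.9-fold), the same *Tpd52* domain (18.3-fold) and *Cdk2ap1*, which encodes an inhibitor of a cyclin-dependent kinase (15.3-fold). The 5 widest domains without H3K27ac were at *Meis2*, *Irx5*, *Pcdh7*, a protocadherin gene (6879 bp), *Sox11* and *Tfap2b*, and each had H3K4me1 over 50.5% or more of its bases and at least 1 Otx2 peak.

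The printed motifs were rarer at Otx2 and Neurod1 peaks in domains than at those away from H3K4me3. TAATCC lay within the 300 bases at the summit of 152 of 1615 Otx2 peaks that overlapped a mouse domain (9.41%), 8.40% of those in other H3K4me3 peaks and 25.6% of those outside H3K4me3. It was found in 7.06% of 32851 RefSeq promoters of 300 bases. CAGATG lay at 34.1% of the 226 Neurod1 peaks in domains, at 33.7% of those in other H3K4me3 peaks and at 58.5% of those outside, beside 17.2% of promoters. CAGCTG lay at 37.6%, 35.3% and 41.1%, beside 16.3% of promoters. None of the searched motifs contains another, and a match of 6 letters is a description of the sequence only.

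The 13LGS domains are given by position on HiC_Itri_2, as no gene names for that assembly were used here. The widest, Itri3:32824730-32849694, covered 24965 bp with an H3K4me3 fold of 66.7, H3K27ac over 98.9% of its bases and 11 Otx2 peaks. The next were Itri1:175598856-175616739 (17884 bp, fold 122, 10 Otx2 peaks) and Itri5:182826414-182841934 (15521 bp, fold 68.5). This last domain had no Otx2 peak and lay within 1 kb of another of the widest 10, Itri5:182842528-182853383 (10856 bp, fold 6.69), which also had none, and the same long H3K27ac peak and the same long H3K4me1 peak ran over most of both. Itri7:34293131-34308527 had 15397 bp, Itri12:17479791-17493915 had 14125 bp, Itri12:35678431-35692503 had 14073 bp, Itri5:69466747-69478753 had 12007 bp, Itri9:140765782-140777332 had 11551 bp and Itri5:72747050-72757264 had 10215 bp. H3K27ac covered 90.6% or more of the bases of each of the 10 except the last, at 33.7%. Neurod1 peaks lay in 2 of the 10, at Itri5:69466747-69478753 with 4.18-fold and at Itri9:140765782-140777332 with 3.35-fold.

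The strongest Otx2 peaks in 13LGS domains, chosen after their values were seen, were of 25.7-fold in Itri14:10537722-10541683 and 22.4-fold in Itri14:10478099-10481794. The strongest Neurod1 peak in a domain had 7.56-fold, at Itri8:5048938-5052110, well under the 37.1-fold of the strongest Neurod1 peak in the 13LGS list, and the strongest in a mouse domain was 20.9-fold against 41.6-fold in the mouse list. In both species the highest Neurod1 peaks lay outside broad H3K4me3 domains.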

How the data were processed

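CUT&RUN peak lists for H3K4me3, H3K27ac, H3K4me1, Otx2, and Neurod1 from P5 13LGS and P2 mouse retina were used, 10 lists in all. The authors trimmed reads with cutadapt 3.5 and Trim Galore 0.6.4, aligned them with Bowtie2 to HiC_Itri_2 or GRCm38, filtered them with SAMtools 1.12, removed duplicates, and called peaks with MACS2 on the pooled libraries of a target, with IgG as control and a q-value limit of 0.05. The fold enrichment deposited by the authors is a ratio of pooled signal to background. The −log10 q-value of each peak was also deposited. H3K27me3 and H3K9me3 were not analysed here.

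Overlap meant 1 bp or more shared. Intervals were handled in Python 3.11.15 with numpy 2.4.6 and pandas 2.3.3, checked on simulated data against bedtools 2.31.1 with 0 differences, and plotted with matplotlib 3.10.9. Widths are end minus start, and printed starts count from 1. Mouse start sites were those of every GENCODE M21 transcript, and a gene with several peaks took its widest. Wilson intervals came from scipy 1.17.1. Sequences were read from GRCm38 with pysam 0.24.0, and microRNAs and promoters from RefSeq. The samples were grouped by species and target as the labels give them. The domains and gene lists were chosen with earlier results of these data known, and no test was run. The named genes are those at the 10 widest domains, the list members in domains, the genes at the 3 domains with the highest fold of H3K27ac, Otx2, or Neurod1, at the 5 widest without H3K27ac and at the width limit, and the microRNAs. *Rax*, *Malat1* and the list genes with narrower peaks or none were added after their values were seen. Some list members are not reported here.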

Additional observations from a re-analysis of the deposited data

How the results depend on the processing

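Of 106 recomputed values, 51 stayed within their interval or within 1.5 times the count, and 55 moved. The number of domains was 3419 in 13LGS and 3265 in mouse at a width limit of 2000 bp, and 310 and 332 at 4000 bp. Merging peaks within 500 bp, or keeping chromosomes only, left both counts within 1.5 times. At a limit of 2000 bp the share with H3K27ac was 68.6% in 13LGS and 48.1% in mouse, with H3K4me1 94.3% in 13LGS, with Otx2 90.3 and 95.01%, and with Neurod1 6.87 and 14.0%. At 4000 bp it was 87.7 and 74.7% for H3K27ac, 98.7 and 99.4% for H3K4me1, 98.5% for Otx2 in mouse and 25.9% for Neurod1 in mouse. With an overlap of 250 bp or more, H3K4me1 had 95.1 and 97.0%, Otx2 91.0% in 13LGS and Neurod1 6.92 and 15.6%. With target peaks of a −log10 q of 5 or more, H3K27ac had 65.5 and 42.4%, H3K4me1 94.3 and 96.5%, Otx2 83.0 and 89.9% and Neurod1 6.02 and 14.5%. At the summit window the shares were 69.4 and 43.0% for H3K27ac, 42.7 and 51.1% for H3K4me1, 80.6 and 82.2% for Otx2 and 3.63 and 8.40% for Neurod1.

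The median share of domain bases under H3K27ac was 24.8 and 0% with the stricter target peaks and 41.2 and 18.0% at 4000 bp, and under H3K4me1 44.6 and 47.4%, and 54.6 and 55.6%. The share of mouse domains over a start site was 98.2% with genes of every type and 94.3% at 4000 bp, and 100 list genes in place of 99 had a start site in or within 1000 bp of a domain. At a limit of 2000 bp 147 list genes had a domain and at 4000 bp 69. Among the lists, housekeeping genes went from 7 to 20 and 1 at these limits, inner retinal TFs from 10 to 16 and 6, cell cycle and growth regulators from 10 to 18 at 2000 bp, and at 4000 bp proneural and Notch pathway genes went from 13 to 7 and phototransduction genes from 5 to 3. No paired analysis was possible because each list pools its libraries, and for the same reason no library could be left out. The lists give no read depth, so an absent peak is one that was not called.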
